A study of Caenorhabditis elegans with 12 samples.

Results

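The comparison described here sets the isp-1;sod-3 double mutant (the double mutant) of Caenorhabditis elegans against wild type, across all genes measured, and asks which pathways and gene families are still changed from wild type when isp-1 worms also lack sod-3. The members were chosen by genotype label alone, 3 libraries of isp-1;sod-3 and 3 of wild type out of 12 in the series, and 3 libraries of the isp-1 single mutant are set beside them. The other 3 libraries, of the isp-1;sod-5 double mutant, are not described here, but enter the fit and so its estimate of the spread. The isp-1;sod-3 worms carry mutations in both genes, isp-1;sod-5 worms in isp-1 and sod-5, the isp-1 worms in isp-1 only, and wild type worms in neither. The labels name no alleles. All were prefertile young adults, kept at 20 °C on NGM agar with OP50 bacteria, and RNA came from whole worms. Each library stands for isolates that the design text describes as combined by 3 from 9 biological replicates per genotype, while the pooling label says none. The p-values therefore measure the spread between libraries, part of which may be technical.

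ISP-1 is the Rieske iron-sulphur subunit of mitochondrial complex III, and a partial loss of its function slows respiration, growth and ageing in worms. The sod-3 gene encodes an inducible manganese superoxide dismutase of the mitochondrial matrix, where sod-2 encodes the main form, and these enzymes turn superoxide into hydrogen peroxide. Worms with impaired respiration are known for switching on several responses, among them the mitochondrial unfolded protein response run by ATFS-1, the oxidative stress response run by SKN-1, the hypoxia response run by HIF-1 and the starvation and longevity programme run by DAF-16.

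Depth, in units of 1000000 reads in genes, was 155.07, 14.93 and 15.49 in isp-1;sod-3 replicates 1 to 3, 16.23, 11.48 and 8.71 in isp-1 and 32.21, 18.72 and 41.91 in wild type. The median SD of log2 values within a genotype was 0.22 in the double mutant, against 0.13 in isp-1 and 0.12 in wild type, and was 0.27 in isp-1;sod-5. Values are counts per 1000000 reads in genes (CPM). Fold changes were fitted on log2(CPM + 0.5), which understates the change of genes with low values. A gene was called where limma gave it an adjusted p (Benjamini-Hochberg) under 0.05, over all 14013 genes tested, and every adjusted p below comes from that fit. The double mutant libraries stood apart from each other in sperm and cuticle genes. Replicate 2 was lowest and replicate 3 highest in both. Muscle markers followed that order and oocyte genes the reverse one, so those groups are described last, with and without these libraries.

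The targeted gene was checked first. The sod-3 gene, on chromosome X from 17092753 to 17094306 in WBcel235, stood at 0.148, 1.47 and 1.74 CPM in the double mutant, 20, 18.6 and 20.7 CPM in isp-1 and 1.68, 1.98 and 2.6 CPM in wild type. In isp-1;sod-3 these values were 23, 22 and 27 reads. Every isp-1;sod-3 library lay below every isp-1 library, and the level was 14.2-fold lower than in isp-1 (log2 fold change -3.83 ± 0.38 (SE), adjusted p = 0.000123). Against wild type, isp-1;sod-3 replicates 2 and 3 overlapped wild type replicate 1 or lay just under it, and the difference did not pass the test (log2 fold change -0.85 ± 0.38 (SE), adjusted p = 0.138). Without isp-1;sod-3 replicate 3 it did, with log2 fold change -1.18. Where along the gene the remaining reads lie cannot be read from a gene-level table. The isp-1 transcript had 362, 323 and 395 CPM in the double mutant, 332, 336 and 348 CPM in isp-1 and 306, 273 and 306 CPM in wild type, with no call against wild type (log2 fold change 0.28 ± 0.11 (SE), adjusted p = 0.0884).

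Among the other dismutases, sod-2 rose in the double mutant. It stood at 106, 107 and 108 CPM in the double mutant, against 74.7, 80.7 and 87.6 CPM in wild type, without overlap (log2 fold change 0.41 ± 0.09 (SE), adjusted p = 0.00702), and the call was lost with median centring (0.38 on the log2 scale). The copper and zinc enzymes sod-1, mainly cytosolic, and sod-4, secreted or membrane bound, had log2 fold changes of 0.19 and 0.48 with adjusted p = 0.18 and 0.0699. The sod-4 value passed under TMM factors, median centring, quantile normalization, edgeR and DESeq2. The second cytosolic enzyme, sod-5, lay below the expression filter at 0.832, 1.01 and 1.61 CPM in the double mutant, against 0.0931, 0.16 and 0.263 CPM in wild type. These values did not overlap, and the exact two-sided permutation p of 0.1 is the smallest that 3 against 3 libraries allow.

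Against wild type, 2379 of 14013 genes (17%) were called in the double mutant, 1458 higher (10.4%) and 921 lower (6.57%). At least 2-fold changes were 496 of the higher and 502 of the lower genes. The higher genes made up 61.3% of calls with CPM as deposited, 51.2% with TMM factors, 50.9% with quantile normalization and 44.7% with median centring, and the median log2 fold change of all genes was 0.01 as deposited. Leaving out isp-1;sod-3 replicate 3 raised the calls to 3525, of which 1828 were lower. The count was 1525 without isp-1;sod-3 replicate 1, and 1256, 1211 and 1500 without wild type replicates 1, 2 and 3. Libraries of the 2 genotypes did not overlap for 39.8% of all genes. The 57 gene lists described here held 2257 tested genes of 2296 in the matrix, and 570 of these were called, 367 higher and 203 lower. Some genes stand in more than 1 list, and these totals count each gene once. Worms were measured whole, so fewer cells of a type and less RNA per cell cannot be told apart.

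The isp-1 single mutant, compared with the same wild type libraries, had 2798 calls (20%), 1345 higher (9.6%) and 1453 lower (10.4%). The count was 5702 with only those 2 genotypes in the fit, 1792 with a filter of 5 CPM and 1088 to 2158 with 1 of their libraries left out. List counts for isp-1 are given from the fit of all 12 libraries alone. Since both comparisons share wild type, their values are given side by side only. The direct test of isp-1;sod-3 against isp-1 called 152 genes (1.08%), 78 higher (0.557%) and 74 lower (0.528%). DESeq2 called 323, and the count was 98 without isp-1 replicate 2 and 89 without isp-1 replicate 3. A gene missing from that list is not thereby shown to be at the same level in both mutants.

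**Figure D1:**
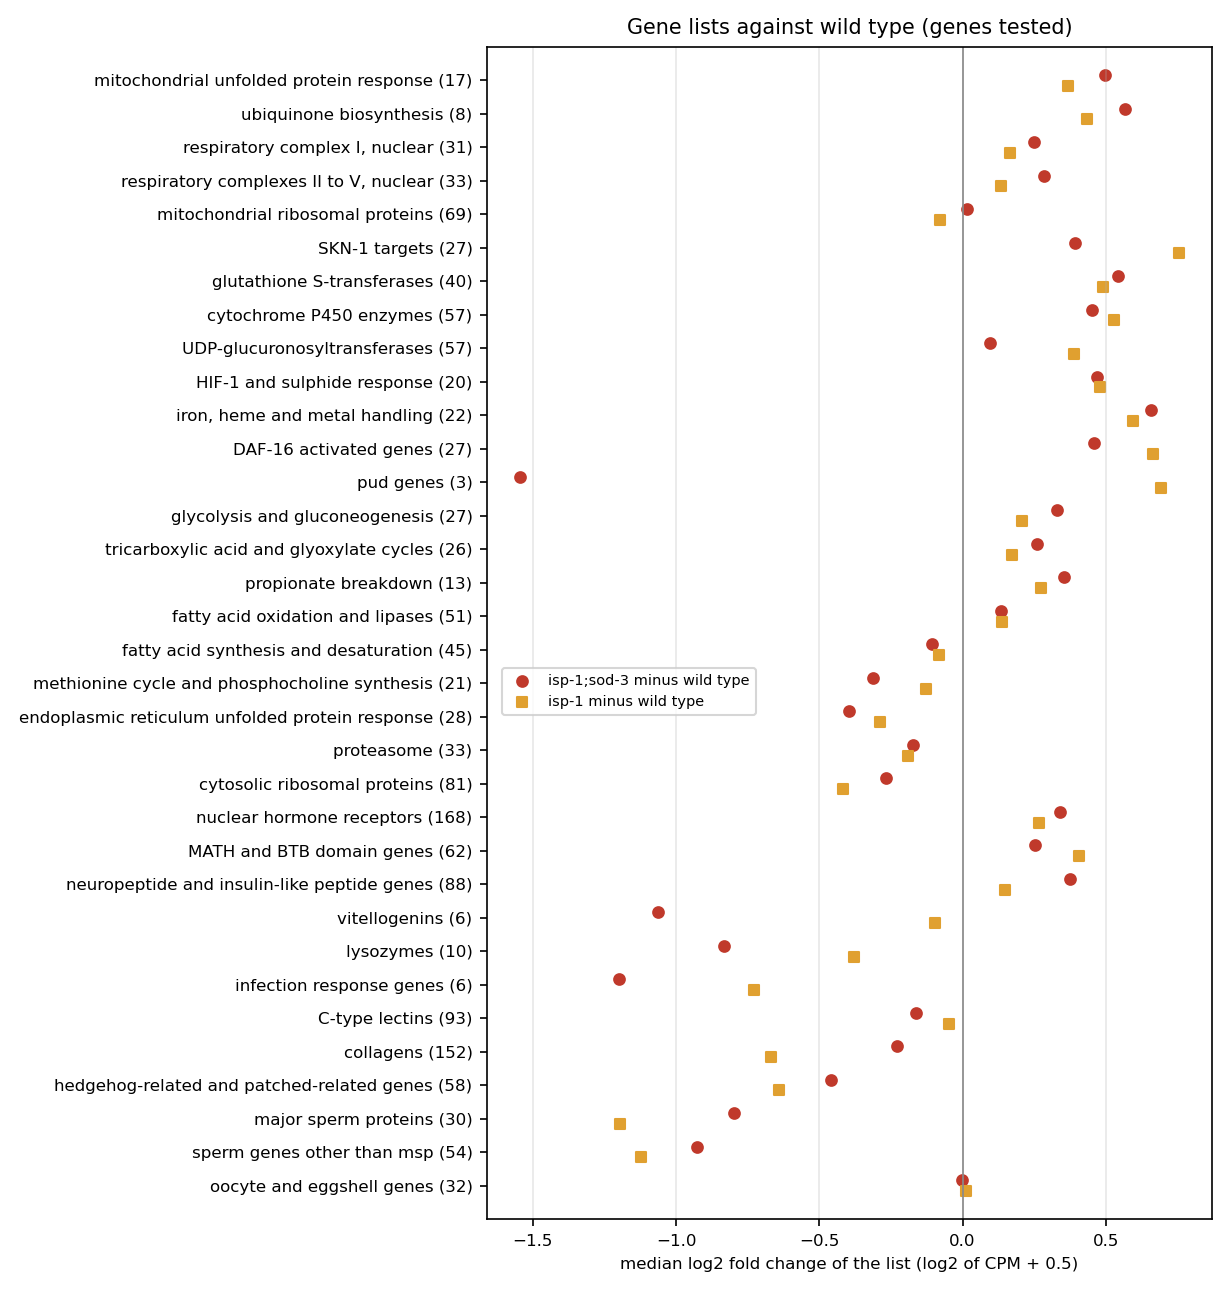
Median log2 fold change (x axis, log2 of CPM + 0.5) of 34 gene lists (y axis, number of tested genes in brackets), for isp-1;sod-3 minus wild type (red circles) and isp-1 minus wild type (yellow squares). The mitochondrial unfolded protein response (0.50), ubiquinone (0.57) and iron and heme (0.66) lists lie right of zero in the double mutant, and the vitellogenins (-1.06), infection response (-1.2) and pud (-1.54) lists lie left of it.

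The largest rises among genes with a locus name were led by tts-1, a long non-coding RNA known from long-lived worms. It stood at 252, 414 and 128 CPM in the double mutant, 95.6, 79.1 and 71.1 CPM in isp-1 and 8.97, 10.9 and 9.66 CPM in wild type. Every isp-1;sod-3 library exceeded every wild type library, and the spread between the double mutant libraries was wide (log2 fold change 4.53 ± 0.36 (SE), adjusted p = 1.59e-05). The P450 genes cyp-14A4, cyp-13A8, cyp-13A12 and cyp-33C2, of a family of oxidases of xenobiotics and lipids, were also among the 12 largest rises, but isp-1;sod-3 replicate 2 alone lifts the last 3 over the 5 CPM average that the ranking asks for, so their number is not a result. The cyp-14A4 gene had 17.3, 79.4 and 10.8 CPM in the double mutant, against 0.435, 0.748 and 0.859 CPM in wild type (log2 fold change 4.44 ± 0.74 (SE), adjusted p = 0.00298). In all 4 isp-1;sod-3 replicate 2 was far above the other libraries, and cyp-13A8 stood at 8.18, 139 and 2.97 CPM in the double mutant, against 0.217, 0.321 and 0.358 CPM in wild type (log2 fold change 4.34 ± 1.31 (SE), adjusted p = 0.048). That call was lost without replicate 2 (log2 2.79) and in 9 other alternatives, and the call of cyp-13A12 (3.53) was lost without wild type replicate 1 (3.41) or 2 (3.49). The heme-binding protein gene hrg-2 rose 16.1-fold, the C-type lectin clec-17 20.9-fold, the degenerin-like channel gene delm-2 14.6-fold and the acyl-CoA synthetase gene acs-2 14.1-fold. The MATH and BTB domain gene bath-13, the cuticle collagen dpy-14 and the ribonuclease H gene rnh-1.3 rose by 3.41, 3.28 and 3.15 on the log2 scale.

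Among genes with a locus name that average 5 CPM or more, the one that fell furthest was fat-7, whose product, a stearoyl-CoA desaturase, introduces the first double bond into fatty acids. It stood at 0.548, 0.737 and 0.839 CPM in the double mutant, 2.1, 3.49 and 1.38 CPM in isp-1 and 55.9, 34.1 and 24.5 CPM in wild type. All 3 double mutant libraries were below 1 CPM and all wild type libraries above 20 CPM, a 30.4-fold difference (log2 fold change -4.93 ± 0.35 (SE), adjusted p = 8.51e-07). Its paralogue fat-5 fell 7.42-fold. The other 10 of the 12 largest falls were the yolk protein gene vit-3, the aspartyl proteases asp-12 and asp-17, the lysozymes lys-4 and ilys-5, the infection response gene irg-8, the lectin clec-47, the P450 gene cyp-35C1, the P-glycoprotein pgp-6 and the hedgehog-related gene wrt-4. Their log2 fold changes ran from -3.37 for wrt-4 to -2.74 for clec-47.

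Genes of the mitochondrial unfolded protein response, a set of chaperones, proteases and import factors induced when matrix proteins misfold, were higher in the double mutant. Of 17 tested members 12 rose and 0 fell, beside 10 and 0 in isp-1, with medians of 0.50 in the double mutant and 0.37 in isp-1 against wild type. The rises were 8 with median centring, 8 without isp-1;sod-3 replicate 1 and 9 without any 1 wild type library. The matrix chaperone hsp-6, the usual reporter of this response, stood at 1400, 1376 and 1456 CPM in the double mutant, 1150, 1164 and 1141 CPM in isp-1 and 792, 729.6 and 720.5 CPM in wild type. The 3 genotypes formed 3 separate bands with isp-1;sod-3 on top, and isp-1;sod-3 exceeded wild type 1.89-fold (log2 fold change 0.92 ± 0.09 (SE), adjusted p = 1.36e-05). Its difference from isp-1 did not pass (log2 fold change 0.29 ± 0.09 (SE), adjusted p = 0.204). The import channel gene timm-17B.2 had 16.1, 18.7 and 15.5 CPM in the double mutant, 10.7, 8.89 and 11.7 CPM in isp-1 and 3.88, 5.13 and 4.84 CPM in wild type (log2 fold change 1.76 ± 0.15 (SE), adjusted p = 5.57e-06 against wild type), and atfs-1, the transcription factor of the response, rose 1.75-fold (log2 fold change 0.81 ± 0.11 (SE), adjusted p = 0.000234). The inner membrane protease ymel-1 rose by 0.69 and the import channel timm-23 by 0.64 on the log2 scale. The second common reporter, hsp-60, was not called, at 605, 575 and 723 CPM in the double mutant, against 672, 689 and 668 CPM in wild type (log2 fold change -0.10 ± 0.11 (SE), adjusted p = 0.561).

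Ubiquinone carries electrons from complexes I and II to complex III, the step at which ISP-1 acts. Of the 8 genes of its synthesis 6 rose in the double mutant and 0 fell, and likewise 6 and 0 in isp-1. The kinase-like regulator coq-8 had 180.4, 161 and 162 CPM in the double mutant, 156, 160.1 and 165 CPM in isp-1 and 101, 103 and 105 CPM in wild type. Libraries of each mutant lay above all of wild type (log2 fold change 0.70 ± 0.10 (SE), adjusted p = 0.000301 for the double mutant), and the 2 mutants overlapped. The prenyl synthase coq-1, the transferase coq-2 and the scaffold coq-4 rose by 0.67, 0.50 and 0.68 on the log2 scale.

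Of 31 nuclear genes of respiratory complex I 9 rose and 0 fell, beside 4 and 0 in isp-1, and of 33 nuclear genes of complexes II to V 8 rose and 0 fell, beside 3 and 0 in isp-1. The core subunit gas-1 had 189.5, 156 and 214 CPM in the double mutant, against 120.1, 119.7 and 132 CPM in wild type (log2 fold change 0.58 ± 0.11 (SE), adjusted p = 0.00265). The nuo-2 and nduf-7 subunits rose by 0.50 and 0.45. The complex III core subunit ucr-2.1 rose by 0.61, the small subunit ucr-11 by 0.52, the heme A synthase cox-15 of complex IV by 0.61 and the succinate dehydrogenase subunit sdha-1 by 0.47. These counts depended on single libraries. Complex I rises were 4 without isp-1;sod-3 replicate 1 and 3 without wild type replicate 1 or 2, and complexes II to V rises were 4, 3 and 4 in the same order. Median centring left 4 rises in complex I, and quantile normalization gave 13 in complexes II to V. Complexes II to V had 1 fall with median centring, with quantile normalization and without isp-1;sod-3 replicate 3.

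Mitochondrial import genes had 5 rises and 0 falls of 15, with tomm-7, a small outer membrane subunit, at 0.73 on the log2 scale. This list shares timm-17B.2 with that of the mitochondrial unfolded protein response, so the 2 counts are not independent. Genes of mitochondrial dynamics and mitophagy had 5 rises and 0 falls of 16, with the mitophagy receptor dct-1 at 0.89. Both counts were 2 or 3 without isp-1;sod-3 replicate 1 or wild type replicate 1 or 2, and for dynamics also without isp-1;sod-3 replicate 2 or wild type replicate 3. Import rises were 3 with quantile normalization, and dynamics rises 2 with median centring and 3 with TMM factors. The dynamics list had 1 fall without isp-1;sod-3 replicate 3. Of 69 mitochondrial ribosomal proteins 5 rose (7.25%) and 1 fell (1.45%), below the shares of all genes (10.4% and 6.57%). The rises were 1 without isp-1;sod-3 replicate 1 or wild type replicate 1 and 3 without wild type replicate 2. They were 3 with TMM factors or edgeR and 1 with median centring. The falls were 3 or 4 with TMM factors, edgeR, DESeq2 and quantile normalization, 3 without isp-1;sod-3 replicate 3 and 0 without any other 1 library of these 2 genotypes. The sign of their median (0.01) turned with TMM factors, median centring and quantile normalization.

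Of 29 antioxidant genes for peroxides and thiols 5 rose (17.2%) and 1 fell (3.45%), beside 10.4% and 6.57% of all genes. In isp-1 there were 6 rises and 1 fall. The mitochondrial thioredoxin reductase trxr-2 stood at 33.2, 27.2 and 26.9 CPM in the double mutant, 27.5, 29.5 and 26.3 CPM in isp-1 and 12.26, 13.1 and 12 CPM in wild type. Wild type libraries were all lower than those of either mutant (log2 fold change 1.18 ± 0.13 (SE), adjusted p = 4.40e-05 for the double mutant), and the mutants overlapped. Its partner trx-2 rose by 0.81, the mitochondrial peroxiredoxin prdx-3 by 0.50 and the catalase ctl-3 by 0.89 on the log2 scale. The 1 fall was lost when any 1 library of these 2 genotypes other than isp-1;sod-3 replicate 3 was left out, with median centring and with only the 2 genotypes.

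Detoxification families differed in their balance of rises and falls, with more rises than falls among SKN-1 targets, glutathione S-transferases and P450 genes. Of 27 SKN-1 targets 13 rose and 2 fell, beside 13 and 1 in isp-1, and the median was 0.39 in the double mutant and 0.76 in isp-1. The glutathione S-transferase gst-4, the usual SKN-1 reporter, had 77.3, 42.8 and 48.4 CPM in the double mutant, 81.9, 72.4 and 64.8 CPM in isp-1 and 15, 16.8 and 14.3 CPM in wild type. Both mutants were above wild type in every library (log2 fold change 1.79 ± 0.20 (SE), adjusted p = 4.53e-05 for the double mutant), and isp-1;sod-3 replicate 1 lay among the isp-1 libraries while replicates 2 and 3 lay below them. The aldehyde dehydrogenase alh-5 rose 2.9-fold (log2 fold change 1.53 ± 0.15 (SE), adjusted p = 1.52e-05). The rate-limiting enzyme of glutathione synthesis, gcs-1, had 132, 130.2 and 113 CPM in the double mutant, against 106, 107 and 102 CPM in wild type and missed the threshold (log2 fold change 0.24 ± 0.09 (SE), adjusted p = 0.0773), passing it without isp-1;sod-3 replicate 3 (log2 0.32). The rises among SKN-1 targets were 8 without wild type replicate 2, and the falls 1 without wild type replicate 2 or 3.

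Of 40 glutathione S-transferases 14 rose and 1 fell, and rises were 9 without wild type replicate 1 or 2 and 8 with a stricter filter of 5 CPM, and the 1 fall was lost without isp-1;sod-3 replicate 1 or wild type replicate 2 or 3. Besides gst-4 they included gst-13 (1.26), gst-14 (2.33) and the omega class gene gsto-1 (1.58, all log2). Of 57 P450 genes 24 rose and 10 fell, beside 21 and 3 in isp-1, with 15 rises without wild type replicate 1 and 6 falls under the stricter filter. The rise of cyp-34A8 had little spread, with 74, 93.8 and 83.8 CPM in the double mutant, 43.1, 37.9 and 42.2 CPM in isp-1 and 18.7, 21.6 and 19.1 CPM in wild type (log2 fold change 2.05 ± 0.12 (SE), adjusted p = 8.96e-08 against wild type, log2 fold change 1.02 ± 0.12 (SE), adjusted p = 0.000377 against isp-1). At the other end, cyp-35A3 stood at 0.258, 0.268 and 0.258 CPM in the double mutant, against 4.22, 3.95 and 5.75 CPM in wild type (log2 fold change -2.74 ± 0.24 (SE), adjusted p = 6.10e-06). Of 57 UDP-glucuronosyltransferases, which make xenobiotics soluble, 10 rose and 11 fell in the double mutant, beside 15 and 6 in isp-1. Examples of rises were ugt-61 (2.08) and ugt-13 (2.21), and the falls numbered 7 without isp-1;sod-3 replicate 2 and 6 without wild type replicate 2. Of 29 short-chain dehydrogenases 5 rose (17.2%) and 2 fell (6.9%), beside 10.4% and 6.57% of all genes. The dhs-9 gene was at 0.85 and dhs-3, a lipid droplet protein, at -0.93. In this family 1 fall was left without any 1 wild type library.

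Among 52 ABC transporters 5 rose (9.62%) and 10 fell (19.2%), beside 10.4% and 6.57% of all genes. The P-glycoprotein pgp-6 had 3.37, 2.28 and 3.61 CPM in the double mutant, 3.63, 4.79 and 3.91 CPM in isp-1 and 31.5, 33.2 and 34.5 CPM in wild type (log2 fold change -3.25 ± 0.19 (SE), adjusted p = 1.12e-07 for the double mutant against wild type), and pgp-5 of the same family fell 6.26-fold. Both mutants were far below wild type in every library for pgp-6, with isp-1;sod-3 just under isp-1. The heme exporter mrp-5 rose 2.01-fold (log2 fold change 1.01 ± 0.15 (SE), adjusted p = 0.000465) and haf-3 rose 1.51-fold. The rises numbered 3 without wild type replicate 2 or with only the 2 genotypes. The falls numbered 16 without isp-1;sod-3 replicate 3 and 4, 4 and 5 without wild type replicates 1, 2 and 3.

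Genes of the HIF-1 and hydrogen sulphide response rose in 11 of 20 cases and fell in 0, beside 9 and 0 in isp-1, with medians of 0.47 and 0.48. With edgeR or quantile normalization the double mutant had 1 fall. The sulphide quinone reductase sqrd-1, which passes electrons to ubiquinone, stood at 12.58, 10.2 and 11.3 CPM in the double mutant, 9.06, 8.54 and 8.5 CPM in isp-1 and 2.92, 2.51 and 2.17 CPM in wild type (log2 fold change 1.97 ± 0.16 (SE), adjusted p = 3.00e-06 for the double mutant). The double mutant libraries were all above isp-1, whose libraries were all above wild type, while the direct test of the mutants did not pass (adjusted p = 0.536). The HIF-1 reporter nhr-57 had 8.41, 6.43 and 8.46 CPM in the double mutant, against 2.14, 2.62 and 2.36 CPM in wild type (log2 fold change 1.52 ± 0.24 (SE), adjusted p = 0.000807), the cysteine synthase family gene cysl-2 rose 2.01-fold and F22B5.4, known as a HIF-1 dependent gene, rose 3.72-fold.

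Iron, heme and metal genes had a median of 0.66, with 11 of 22 higher and 1 lower, beside 10 and 0 in isp-1, and the 1 lower gene was lost when any 1 library other than isp-1;sod-3 replicate 3 was left out. Heme cannot be made by worms and is taken up from food, and hrg genes encode proteins of that traffic. The heme importer hrg-1 stood at 82, 103 and 98.9 CPM in the double mutant, 27.1, 37.4 and 47.8 CPM in isp-1 and 13.7, 16.5 and 21.6 CPM in wild type. The intercellular heme signal hrg-7 had 811, 939.5 and 871 CPM in the double mutant, 386, 465 and 476 CPM in isp-1 and 215, 267 and 261 CPM in wild type. For both genes the 3 genotypes did not overlap and isp-1;sod-3 was on top, 5.43-fold and 3.53-fold above wild type (log2 fold change 2.44 ± 0.19 (SE), adjusted p = 2.39e-06 and log2 fold change 1.82 ± 0.12 (SE), adjusted p = 3.72e-07). The ferritin gene ftn-1 had 8.05, 11.8 and 7.94 CPM in the double mutant, against 0.745, 0.748 and 0.668 CPM in wild type (log2 fold change 2.98 ± 0.25 (SE), adjusted p = 3.43e-06). The metallothionein mtl-1 stood at 1.75, 2.48 and 3.48 CPM in the double mutant, against 0.0621, 0.0534 and 0.0716 CPM in wild type (log2 fold change 2.41 ± 0.41 (SE), adjusted p = 0.0015), and the cytosolic aconitase aco-1, which in other animals doubles as an iron regulatory protein, rose by 0.39 on the log2 scale. The aco-1 call was lost under TMM factors, median centring and edgeR, and without isp-1;sod-3 replicate 1 or wild type replicate 2 (log2 0.34 to 0.37).

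**Figure D2:**
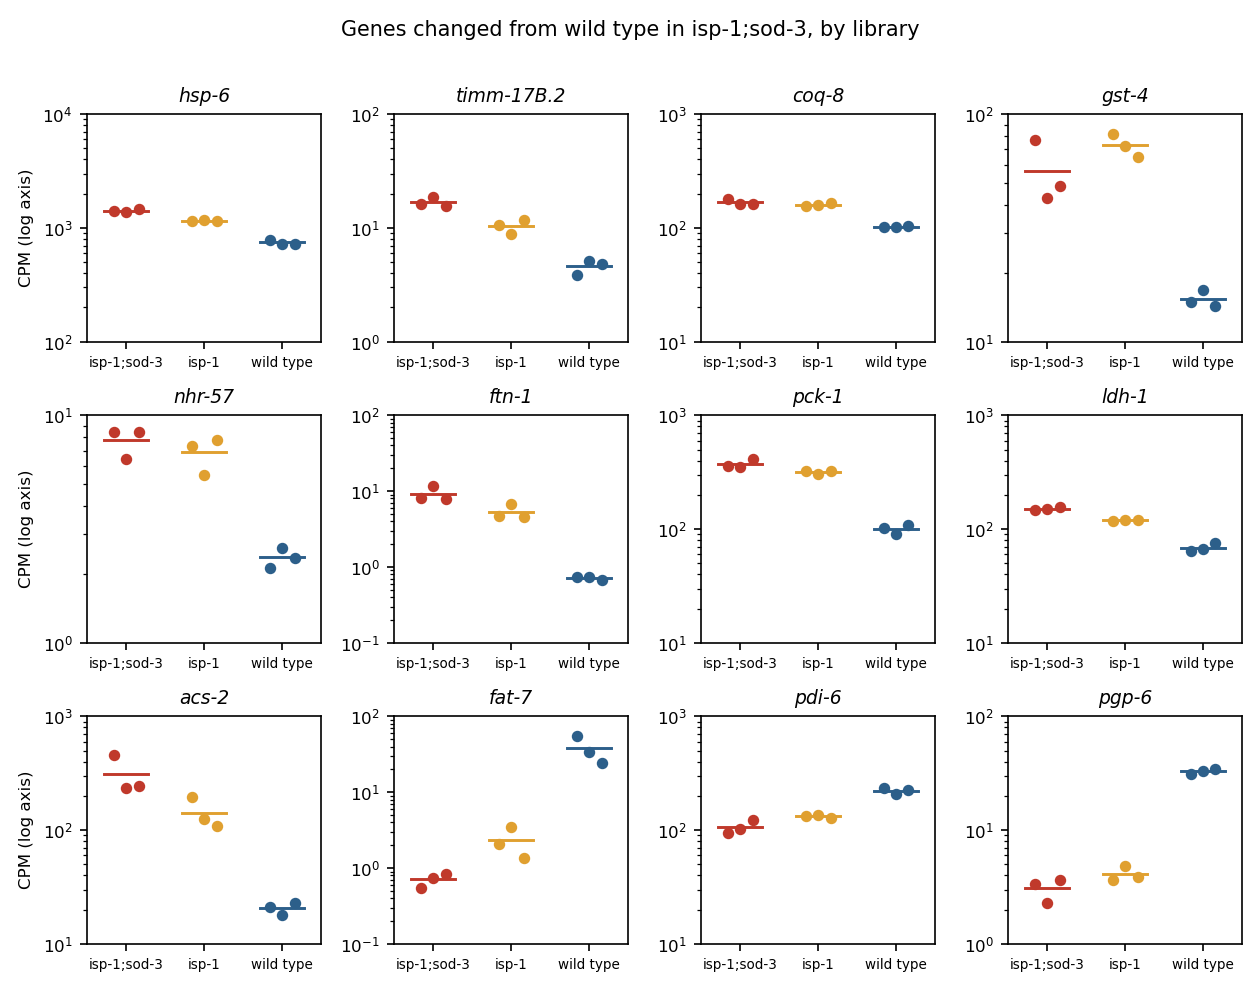
CPM on a log y axis in each library of isp-1;sod-3, isp-1 and wild type (x axis, 3 points per genotype for replicates 1 to 3 from left to right, bars for means) for 12 genes called against wild type in the double mutant. In every panel the 3 isp-1;sod-3 points lie on one side of the 3 wild type points, as for pck-1 with 361, 349 and 414 CPM in the double mutant and 102, 91.3 and 108 CPM in wild type.

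Of 27 genes activated by the FOXO factor DAF-16, 12 rose and 3 fell, beside 13 and 2 in isp-1, and sod-3 itself is a member. The nicotinamide nucleotide transhydrogenase nnt-1 stood at 11.1, 16.9 and 13.3 CPM in the double mutant, 7.02, 8.54 and 6.78 CPM in isp-1 and 1.96, 1.92 and 2.43 CPM in wild type (log2 fold change 2.44 ± 0.18 (SE), adjusted p = 1.54e-06 for the double mutant). The 3 genotypes did not overlap, with wild type lowest. In the small dod group, genes repressed by DAF-16, 3 of 5 fell in the double mutant, where isp-1 had 2 rises and 1 fall. The other 2 went up, by at most 0.76 on the log2 scale, at an unadjusted limma p below 0.05. These 2 were called higher with DESeq2 or quantile normalization. With TMM factors, edgeR, median centring or only the 2 genotypes, and without isp-1;sod-3 replicate 2, 1 of them was. The intestinal gene dod-24 had 3.04, 6.03 and 5.49 CPM in the double mutant, 41, 43.7 and 31.6 CPM in isp-1 and 24.8, 16 and 17.5 CPM in wild type. The double mutant libraries were all below wild type and the isp-1 libraries all above it. The fall was 3.79-fold against wild type (log2 fold change -1.92 ± 0.27 (SE), adjusted p = 0.000319) and 7.52-fold against isp-1 (log2 fold change -2.91 ± 0.27 (SE), adjusted p = 6.58e-05). The dod-19 gene fell 3.15-fold in the double mutant. The call of dod-23 (-0.70) was lost without isp-1;sod-3 replicate 1 or 3 or wild type replicate 2 or 3.

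Genes of central carbon metabolism, where called in the limma fit of all 12 libraries, were higher. Of 27 genes for glycolysis and gluconeogenesis 15 were called higher and 0 lower in the double mutant, beside 12 and 3 in isp-1. There was 1 fall with TMM factors, edgeR, DESeq2, median centring, quantile normalization or a pseudocount of 1. Without isp-1;sod-3 replicate 2 there was 1 fall as well, and without replicate 3 there were 2. The gluconeogenic enzyme pck-1 stood at 361, 349 and 414 CPM in the double mutant, 321, 308 and 326 CPM in isp-1 and 102, 91.3 and 108 CPM in wild type. Both mutants were above 300 CPM in every library and wild type was below 110 CPM (log2 fold change 1.89 ± 0.10 (SE), adjusted p = 4.31e-08 for the double mutant). Lactate dehydrogenase ldh-1 rose 2.2-fold to 147, 149.6 and 156 CPM, against 64, 66.2 and 75.6 CPM in wild type (log2 fold change 1.14 ± 0.08 (SE), adjusted p = 1.26e-06). Aldolase aldo-1 rose 2.47-fold and the phosphoglycerate mutase ipgm-1 1.86-fold. Of 26 tricarboxylic acid and glyoxylate cycle genes 8 rose and 0 fell, with 1 fall with DESeq2 or quantile normalization. The rises were 3 without isp-1;sod-3 replicate 1, 3 without wild type replicate 2 and 5 without wild type replicate 1 or 3. They were 3 with median centring and 5 with TMM factors or edgeR. The mitochondrial aconitase aco-2 had 1281, 1261 and 1393 CPM in the double mutant, against 783, 780.1 and 903 CPM in wild type (log2 fold change 0.68 ± 0.11 (SE), adjusted p = 0.00133). The glyoxylate enzyme icl-1, which lets worms make sugar from fat, had 1162, 958 and 989 CPM in the double mutant, 624, 479 and 434 CPM in isp-1 and 291, 250.4 and 266 CPM in wild type. It was 3.84-fold above wild type (log2 fold change 1.94 ± 0.16 (SE), adjusted p = 2.62e-06) and 2.04-fold above isp-1 (log2 fold change 1.03 ± 0.16 (SE), adjusted p = 0.00326), with no overlap of genotypes.

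Propionate breakdown was one of the lists with a difference from isp-1. Of 13 genes 7 rose and 0 fell against wild type, beside 5 and 3 in isp-1, and 3 were higher than in isp-1. The canonical pathway through vitamin B12 was represented by the carboxylase subunits pcca-1 and pccb-1 and the mutase mmcm-1, which rose by 0.60, 0.64 and 0.48 on the log2 scale and were at 0.09, 0.08 and 0.15 against isp-1. In the shunt that works without the vitamin, the dehydrogenase hphd-1 stood at 731, 678 and 760.4 CPM in the double mutant, 386, 385 and 346 CPM in isp-1 and 469.5, 469.9 and 532 CPM in wild type. Its double mutant libraries were the highest and its isp-1 libraries the lowest (log2 fold change 0.56 ± 0.10 (SE), adjusted p = 0.00268 against wild type, log2 fold change 0.96 ± 0.10 (SE), adjusted p = 0.000248 against isp-1). The first shunt enzyme, acdh-1, had 1905, 1702 and 2019 CPM in the double mutant, against 1353, 1455 and 1360 CPM in wild type (log2 fold change 0.43 ± 0.12 (SE), adjusted p = 0.0247), and its call was lost without isp-1;sod-3 replicate 1 or 3 or any 1 wild type library (log2 0.37 to 0.46).

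Fat metabolism moved both ways. Of 51 fatty acid oxidation and lipase genes 13 rose and 8 fell, with 8 rises without wild type replicate 1 and 7 without wild type replicate 2. The acyl-CoA synthetase acs-2, which feeds mitochondrial oxidation, stood at 461, 232 and 243 CPM in the double mutant, 194, 124 and 109 CPM in isp-1 and 21.1, 18.1 and 22.7 CPM in wild type (log2 fold change 3.82 ± 0.30 (SE), adjusted p = 1.02e-05 for the double mutant). Replicate 1 of isp-1;sod-3 stood above the others, the 3 genotypes did not overlap, and no mutant library came near wild type. The lipase lipl-2 rose 4.68-fold, while the acyl-CoA oxidase acox-1.5 and the enoyl-CoA hydratase ech-9 fell 2.93-fold and 3.98-fold. Of 45 genes that make or desaturate fatty acids 2 rose (4.44%) and 11 fell (24.4%), the same counts as in isp-1. The shares of all genes in the double mutant were 10.4% and 6.57%. Beside fat-7 and fat-5, the desaturase fat-6 fell 1.74-fold and the triglyceride enzyme dgat-2 3.44-fold, whereas the omega-3 desaturase fat-1 rose 1.47-fold. The falls were 6 without isp-1;sod-3 replicate 2, 5 without wild type replicate 1 and 6 without wild type replicate 2, and the rises were 4 without isp-1;sod-3 replicate 3.

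The methionine cycle and phosphocholine synthesis list had 2 rises (9.52%) and 10 falls (47.6%) of 21, beside 10.4% and 6.57% of all genes. In isp-1 there were 2 rises and 4 falls. The S-adenosylhomocysteine hydrolase ahcy-1 stood at 1240, 1160 and 1431 CPM in the double mutant, 1495, 1627 and 1520 CPM in isp-1 and 2442, 2288 and 2416 CPM in wild type. The genotypes formed 3 bands with isp-1;sod-3 lowest (log2 fold change -0.90 ± 0.10 (SE), adjusted p = 6.31e-05 against wild type, log2 fold change -0.28 ± 0.10 (SE), adjusted p = 0.382 against isp-1). The phosphoethanolamine methyltransferase pmt-2 had 410.2, 336 and 462 CPM in the double mutant, against 756, 669.9 and 728 CPM in wild type (log2 fold change -0.84 ± 0.12 (SE), adjusted p = 0.00026), the S-adenosylmethionine synthetase sams-3 fell 1.95-fold and the choline kinase ckb-2 3.16-fold. With isp-1;sod-3 replicate 1 or 2, or wild type replicate 1 or 2, left out there were 6 falls, and with any 1 of the 6 libraries left out 0 or 1 rise.

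The unfolded protein response of the endoplasmic reticulum ran in the other direction from the mitochondrial one. Of 28 genes 15 fell and 0 rose, beside 10 falls and 0 rises in isp-1, with medians of -0.40 in the double mutant and -0.29 in isp-1. The protein disulphide isomerase pdi-6 stood at 95.1, 103 and 122 CPM in the double mutant, 134, 135 and 128 CPM in isp-1 and 236, 207 and 224 CPM in wild type (log2 fold change -1.06 ± 0.10 (SE), adjusted p = 1.64e-05 for the double mutant). The BiP chaperones hsp-3 and hsp-4 fell 1.71-fold and 1.43-fold, and the hsp-4 call was lost without wild type replicate 1 (log2 -0.47). The stress sensor ire-1 had 63, 62.4 and 53.4 CPM in the double mutant, 155, 141 and 159.7 CPM in isp-1 and 139.6, 141 and 130.2 CPM in wild type. The isp-1 libraries lay just above wild type with no call, and isp-1;sod-3 was 2.29-fold below wild type (log2 fold change -1.2 ± 0.11 (SE), adjusted p = 1.36e-05) and 2.54-fold below isp-1 (log2 fold change -1.34 ± 0.11 (SE), adjusted p = 5.09e-05). The falls in the list were 8 without isp-1;sod-3 replicate 1 and 8 without wild type replicate 1.

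Of 16 cytosolic heat shock genes 2 rose (12.5%, beside 10.4% of all genes) and 0 fell. The rises were the small heat shock proteins hsp-12.3 (1.05) and hsp-43 (0.41), with 1 left without isp-1;sod-3 replicate 1 or wild type replicate 1 or 2. Heat shock genes had 1 fall with TMM factors, edgeR, DESeq2 or quantile normalization, and without wild type replicate 3. The reporter hsp-16.2 had 6.18, 1.34 and 0.129 CPM in the double mutant, against 1.49, 0.748 and 0.31 CPM in wild type, with overlap (log2 fold change 0.65 ± 1.11 (SE), adjusted p = 0.731), and its direction turned without isp-1;sod-3 replicate 1 (log2 -0.23). Of 33 proteasome genes 3 fell (9.09%, beside 6.57% of all genes) and 0 rose, with pas-6 at -0.41 on the log2 scale, and 0 falls were left with median centring and without isp-1;sod-3 replicate 1 or 3 or any 1 wild type library, and DESeq2 gave 7. Of 65 autophagy, lysosome and V-ATPase genes 7 rose (10.8%) and 6 fell (9.23%), among them the cathepsin B family genes cpr-5 (0.86), cpr-8 (1.14) and cpr-6 (-0.42). These rises were 3 or 4 without isp-1;sod-3 replicate 2 or any 1 wild type library, with TMM factors, with median centring and with only the 2 genotypes. The falls were 1 to 3 without any 1 of the 6 libraries, and 3 with only the 2 genotypes.

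Cytosolic ribosomal protein genes had 6 falls (7.41%, near the 6.57% of all genes) and 0 rises of 81 in the double mutant. In isp-1 they had 45 falls (55.6%, beside 10.4% of all genes). The medians were -0.27 in the double mutant and -0.42 in isp-1, and 0 of the 81 genes differed between the mutants. The rpl-2 gene stood at 1015, 965 and 1166 CPM in the double mutant, 958, 911 and 916 CPM in isp-1 and 1488, 1404 and 1552 CPM in wild type (log2 fold change -0.50 ± 0.12 (SE), adjusted p = 0.0146 for the double mutant). The count of falls was 6 with other filters and pseudocounts and 5 without wild type replicate 1, and moved to 0, 1 and 14 without isp-1;sod-3 replicates 1, 2 and 3, 1 and 0 without wild type replicates 2 and 3, 13 with quantile normalization, 16 with median centring, 20 with TMM factors, 21 with only the 2 genotypes, 22 with edgeR and 33 with DESeq2. Of 71 translation factors and tRNA synthetases 5 rose (7.04%) and 11 fell (15.5%), beside 10.4% and 6.57% of all genes. The cytosolic tyrosyl-tRNA synthetase yars-1 fell 1.42-fold, and the mitochondrial asparaginyl-tRNA synthetase nars-2 rose 1.46-fold. The falls were 7 without isp-1;sod-3 replicate 1, 5 without wild type replicate 2 or 3 and 5 with median centring, and the rises 2 or 3 without isp-1;sod-3 replicate 1 or 2 or wild type replicate 1 or 2 and 2 with TMM factors, edgeR or median centring.

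Of 168 nuclear hormone receptor genes 39 rose and 2 fell, beside 30 and 2 in isp-1 (23.2% higher in the double mutant, beside 10.4% of all genes). The nhr-61 gene had 26.5, 34.4 and 23.5 CPM in the double mutant, 16.9, 18.6 and 15.8 CPM in isp-1 and 6.49, 7.21 and 7.49 CPM in wild type (log2 fold change 1.9 ± 0.16 (SE), adjusted p = 3.31e-06 for the double mutant), and nhr-210 and nhr-193 rose 3.63-fold and 3.25-fold. The rises numbered 24 without isp-1;sod-3 replicate 1 and 25, 23 and 24 without wild type replicates 1, 2 and 3. Of 62 MATH and BTB domain genes, many of them adaptors of cullin ubiquitin ligases, 22 rose (35.5%) and 1 fell, beside 19 and 1 in isp-1, and the fall was lost without isp-1;sod-3 replicate 2 or any 1 wild type library. The bath-13 gene stood at 11.2, 11.2 and 9.42 CPM in the double mutant, 10.2, 9.06 and 11.3 CPM in isp-1 and 0.466, 0.588 and 0.573 CPM in wild type, with the mutants overlapping far above wild type (log2 fold change 3.41 ± 0.16 (SE), adjusted p = 1.52e-08). Rises in this family were 14 without isp-1;sod-3 replicate 1 and 10, 14 and 12 without wild type replicates 1, 2 and 3, and 11 with a filter of 5 CPM. Of 167 F-box, SKP1-related and cullin genes 22 rose (13.2%) and 8 fell (4.79%), near the shares over all genes (10.4% and 6.57%), beside 32 and 8 in isp-1, with fbxa-192 (2.32) and fbxa-107 (1.86) among the rises, which were 14 without wild type replicate 1, 34 with DESeq2 and 11 with the 5 CPM filter. Its falls were 4 without isp-1;sod-3 replicate 2 or wild type replicate 1 or 2, 5 without wild type replicate 3, 3 with the 5 CPM filter and 13 with median centring. Copies in these families can be near identical, so their reads may be shared between members.

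Neuropeptide and insulin-like peptide genes had 13 rises (14.8%, beside 10.4% of all genes) and 0 falls of 88 in the double mutant, beside 2 and 1 in isp-1. The flp-18 gene, which encodes FMRFamide-like peptides, stood at 15.8, 17.4 and 15.6 CPM in the double mutant, 10.8, 12.4 and 14 CPM in isp-1 and 8.54, 7.85 and 8.52 CPM in wild type, and its double mutant libraries were all above those of both other genotypes (log2 fold change 0.93 ± 0.15 (SE), adjusted p = 0.00084 against wild type, log2 fold change 0.38 ± 0.15 (SE), adjusted p = 0.418 against isp-1). The nlp-21 and nlp-11 genes rose 1.9-fold and 1.89-fold. Peptide processing enzymes listed as neuron markers, egl-21 and egl-3, rose by 0.47 and 0.41 on the log2 scale, the only 2 of 34 neuron markers called by limma, where edgeR called 4 rises. Of the 88 peptide genes 0 differed from isp-1 at the threshold. Their rises were 5 without isp-1;sod-3 replicate 1, where there was also 1 fall. They were 7, 5 and 7 without wild type replicates 1, 2 and 3, and 22 with quantile normalization. The 34 neuron markers summed to 1103, 993 and 1092 CPM in the double mutant and 1189, 1039 and 949 CPM in wild type, with overlap. The egl-3 call was lost without wild type replicate 2 (log2 0.36) or 3 (0.39). Of 49 transthyretin-related genes 11 rose (22.45%) and 2 fell (4.08%), beside 10.4% and 6.57% of all genes. The ttr-2 gene was at 0.76 and ttr-1 at -1.66. The rises of this family were 5 without isp-1;sod-3 replicate 1 or wild type replicate 1 or 2. Its falls were 1 without any 1 library of these 2 genotypes other than isp-1;sod-3 replicate 3, and 5 and 4 with median centring and quantile normalization.

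Vitellogenins are made in the adult intestine and loaded into oocytes. Of 6 genes 4 fell and 0 rose against wild type, beside 2 and 0 in isp-1, and the same 4 were lower than in isp-1. The vit-3 gene stood at 306, 318 and 252 CPM in the double mutant, 1139, 860.3 and 1037 CPM in isp-1 and 2890, 2740 and 2697 CPM in wild type. The 3 genotypes did not overlap, with isp-1 in between, and isp-1;sod-3 was 9.53-fold below wild type (log2 fold change -3.25 ± 0.18 (SE), adjusted p = 6.25e-08) and 3.46-fold below isp-1 (log2 fold change -1.79 ± 0.18 (SE), adjusted p = 0.000112). The vit-4 gene had 595, 587 and 518 CPM in the double mutant, 1821, 1408 and 1667 CPM in isp-1 and 2328, 2285 and 2207 CPM in wild type (log2 fold change -2.01 ± 0.14 (SE), adjusted p = 8.51e-07 against wild type, log2 fold change -1.52 ± 0.14 (SE), adjusted p = 7.50e-05 against isp-1). The vit-1 and vit-5 genes were at -1.31 and -0.81 (log2) against wild type and were at -1.03 and -0.91 against isp-1. The vit-5 call against wild type was lost under quantile normalization (-0.49). Its call against isp-1 was lost with TMM factors, edgeR, median centring and quantile normalization (-0.57 to -0.93), without isp-1;sod-3 replicate 1 or 3, and without any 1 isp-1 library (-0.80 to -1.02). That of vit-1 was lost with quantile normalization (-0.87) and without isp-1 replicate 1 or 3 (-0.96 and -0.98). The most abundant member, vit-2, had 15870, 24680 and 14310 CPM in the double mutant, against 17630, 16360 and 15840 CPM in wild type, with overlap (log2 fold change 0.10 ± 0.21 (SE), adjusted p = 0.783), and its sign turned without isp-1;sod-3 replicate 2 (-0.14). The vit-3, vit-4 and vit-5 sequences are close copies of each other, so the split of reads between them is uncertain. The 20 intestine markers summed to 5317, 4915 and 6171 CPM in the double mutant, 5026, 5222 and 4862 CPM in isp-1 and 6852, 6553 and 6560 CPM in wild type, and their part in these falls was not tested.

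Secreted and defence families differed in direction. Of 10 lysozyme genes 5 fell (50%) and 1 rose (10%), beside 6.57% and 10.4% of all genes. In isp-1 there were 4 falls and 1 rise. For the double mutant 0 rises were left without any 1 wild type library, and 3 falls with a filter of 5 CPM. The invertebrate-type lysozyme ilys-5 stood at 76.4, 53.3 and 78.6 CPM in the double mutant, 254, 219 and 206 CPM in isp-1 and 459, 498 and 487 CPM in wild type. The lysozyme lys-4 had 34.7, 23.9 and 35.6 CPM in the double mutant, 73.9, 93.3 and 59.9 CPM in isp-1 and 215, 221 and 224 CPM in wild type. Both showed 3 separate bands with isp-1;sod-3 lowest, 6.99-fold and 7.01-fold below wild type (log2 fold change -2.81 ± 0.16 (SE), adjusted p = 7.33e-08 and log2 fold change -2.81 ± 0.17 (SE), adjusted p = 1.72e-07), and both were lower than in isp-1 (-1.71 and -1.26, adjusted p = 6.44e-05 and 0.00154). The lys-7 gene, a known target of immune pathways, fell 3.91-fold. Of 6 infection response genes 5 fell and 0 rose, with 3 falls left without wild type replicate 2 or 3 and with the 5 CPM filter. The irg-8 gene had 50.1, 36.4 and 55.4 CPM in the double mutant, 142, 164 and 114 CPM in isp-1 and 489, 409.6 and 394 CPM in wild type (log2 fold change -3.19 ± 0.17 (SE), adjusted p = 4.35e-08 against wild type, log2 fold change -1.56 ± 0.17 (SE), adjusted p = 0.000227 against isp-1), while irg-1 fell 2.92-fold against wild type and was at 0.56 against isp-1 (adjusted p = 0.595). Of 11 aspartyl proteases 3 rose and 3 fell, with asp-12 at 1.86, 1.81 and 2.65 CPM in the double mutant, against 39.4, 23.4 and 18.6 CPM in wild type (log2 fold change -3.35 ± 0.26 (SE), adjusted p = 2.05e-06) and asp-8 up 2.64-fold. Of 93 C-type lectins 18 rose (19.4%) and 20 fell (21.5%), beside 10.4% and 6.57% of all genes. The lectin falls were 8, 11 and 13 without wild type replicates 1, 2 and 3 and 9 with the 5 CPM filter. Of 53 antimicrobial peptide genes 8 rose (15.1%) and 5 fell (9.43%), beside 10.4% and 6.57% of all genes. The falls were 2 or 3 without isp-1;sod-3 replicate 1 or 2 or any 1 wild type library. They were 3 with the 5 CPM filter or only the 2 genotypes, and 11, 10 and 9 with median centring, DESeq2 and quantile normalization. The saposin-like spp-1 stood at 63.5, 66.3 and 65.1 CPM in the double mutant, 47.1, 45.9 and 43.6 CPM in isp-1 and 21.3, 23.4 and 25.7 CPM in wild type (log2 fold change 1.45 ± 0.09 (SE), adjusted p = 2.73e-07 against wild type), whereas spp-4 fell 3.54-fold and spp-17 1.51-fold.

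Where isp-1;sod-3 and isp-1 differed, some genes had moved further from wild type in the double mutant and others were called in the double mutant but not in isp-1. The heme genes hrg-1, hrg-2 and hrg-7 (1.36, 1.4 and 0.99 against isp-1), icl-1, the yolk genes vit-3 and vit-4, lys-4, ilys-5 and irg-8 were of the first kind, and the hrg-2 difference was lost without isp-1 replicate 3 (1.37). Xanthine dehydrogenase xdh-1, an enzyme of purine breakdown, was of the second. It stood at 159, 134 and 143 CPM in the double mutant, 47.1, 60.1 and 54.8 CPM in isp-1 and 53.9, 55.9 and 51.3 CPM in wild type, with isp-1 and wild type overlapping (log2 fold change 1.43 ± 0.15 (SE), adjusted p = 0.000171 against isp-1, log2 fold change 1.43 ± 0.15 (SE), adjusted p = 2.66e-05 against wild type). The cullin cul-5 had 35.6, 35.5 and 29.9 CPM in the double mutant, 80.4, 83 and 81.9 CPM in isp-1 and 80.5, 85.2 and 82.5 CPM in wild type, and isp-1;sod-3 was below both (log2 fold change -1.27 ± 0.11 (SE), adjusted p = 5.03e-05 against isp-1, log2 fold change -1.29 ± 0.11 (SE), adjusted p = 3.64e-06 against wild type). The F-box gene fbxa-24 (2.61) and the lectins clec-72 (1.82) and clec-43 (2.23) were higher than in isp-1. Of these, clec-43 was of neither kind, with opposite calls against wild type in the 2 mutants. It was lower in isp-1 (log2 -0.66, adjusted p = 0.0354) and higher in the double mutant (1.58, adjusted p = 0.000148). Wild type had 3.01, 2.46 and 2.77 CPM of clec-43. The fbxa-24 gene had 8.74, 24.6 and 7.55 CPM in the double mutant, 1.05, 2 and 1.61 CPM in isp-1 and 1.43, 1.55 and 1.43 CPM in wild type, with isp-1;sod-3 replicate 2 well above replicates 1 and 3.

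Other genes were lower in the double mutant than in isp-1. The P450 gene cyp-13B1 stood at 7.46, 3.95 and 6 CPM in the double mutant, 29, 15 and 22.9 CPM in isp-1 and 0.248, 0.481 and 0.453 CPM in wild type, so isp-1;sod-3 was above wild type (log2 fold change 2.79 ± 0.26 (SE), adjusted p = 1.20e-05) and below isp-1 (log2 fold change -1.84 ± 0.26 (SE), adjusted p = 0.00212). The flavin monooxygenase fmo-2, a HIF-1 target, showed the same order at 2.46, 2.54 and 3.03 CPM in the double mutant, 6.53, 7.76 and 7.93 CPM in isp-1 and 0.031, 0 and 0.119 CPM in wild type (log2 fold change 2.53 ± 0.20 (SE), adjusted p = 2.48e-06 against wild type, log2 fold change -1.31 ± 0.20 (SE), adjusted p = 0.00348 against isp-1), and wild type replicate 2 is listed at 0. The difference of fmo-2 from isp-1 was lost with a pseudocount of 0.1 (log2 -1.43). The dehydrogenase dhs-8 had -1.46 against isp-1 and 1.14 against wild type. The pud genes, named for proteins raised in daf-2 mutants, were called lower than in both, in 3 of 3 cases each, but with only isp-1;sod-3 and isp-1 in the fit all 3 calls against isp-1 were lost (adjusted p = 0.18 for pud-3, 0.0999 for pud-4 and 0.057 for pud-1.1, limma). The pud-3 gene had 0.232, 0.603 and 2.77 CPM in the double mutant, 18.4, 5.93 and 6.32 CPM in isp-1 and 3.48, 5.45 and 5.97 CPM in wild type (log2 fold change -2.76 ± 0.51 (SE), adjusted p = 0.0176 against isp-1). The pud-3 call was lost with edgeR against isp-1 (adjusted p = 0.09) and against wild type (0.061). Against isp-1 it was also lost without double mutant replicate 1 or 2 or isp-1 replicate 1 (log2 -2.26 to -2.6), the pud-4 call with a pseudocount of 0.1 and without double mutant replicate 1 or isp-1 replicate 1 (-1.8 to -1.92), and only 1 of 3 pud genes was called against wild type without isp-1;sod-3 replicate 1 or 2 or wild type replicate 2 or 3, and with the 5 CPM filter. In isp-1 none of the 3 pud genes was called against wild type. Close copies among pud genes make their read assignment uncertain.

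**Figure D3:**
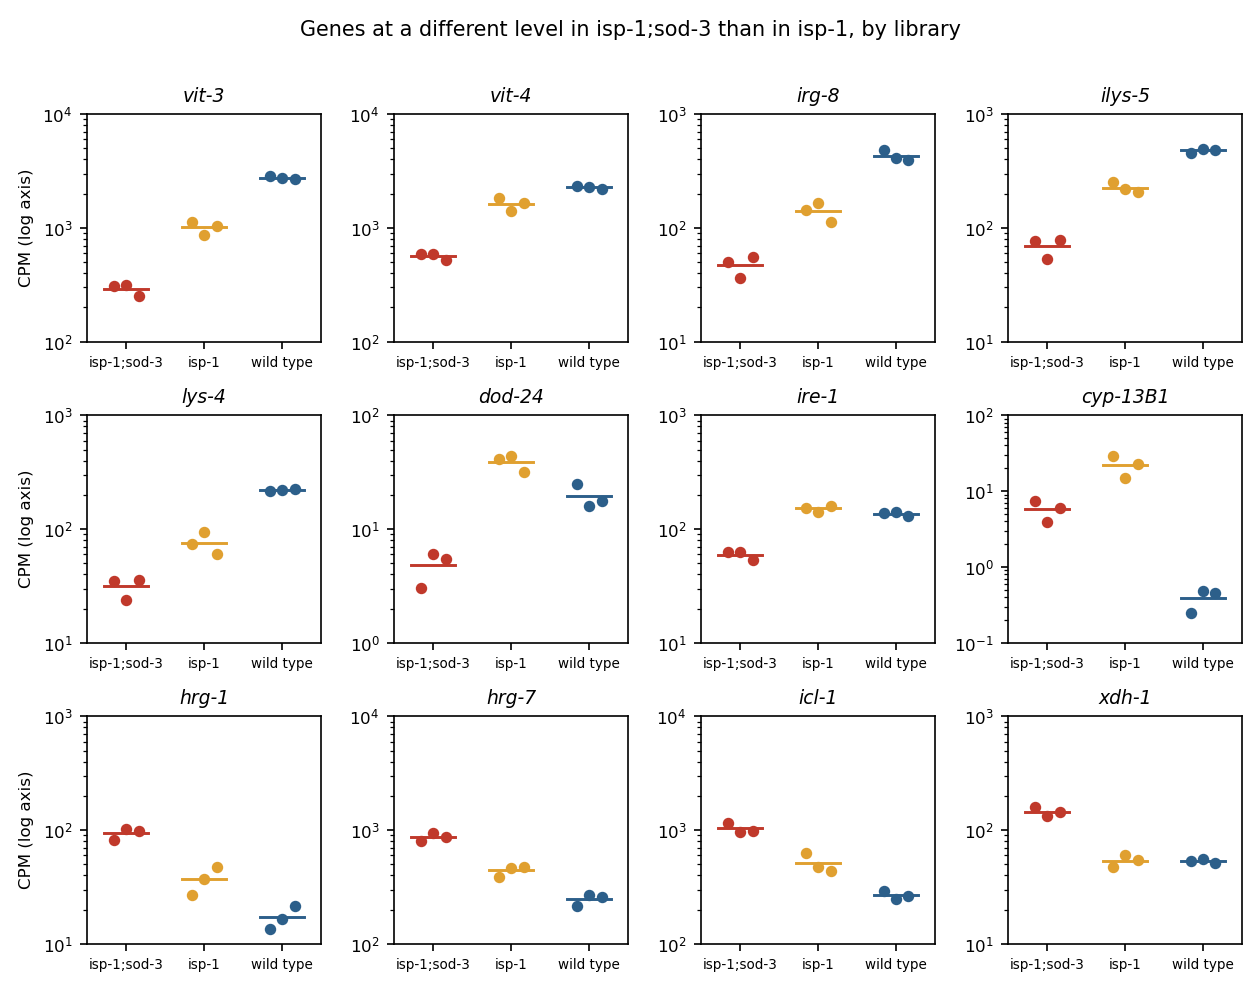
CPM on a log y axis in each library of isp-1;sod-3, isp-1 and wild type (x axis, replicates 1 to 3 from left to right, bars for means) for 12 genes that differed between isp-1;sod-3 and isp-1. The yolk, lysozyme and irg-8 panels fall in steps towards isp-1;sod-3, ire-1 is lowest and xdh-1 highest in isp-1;sod-3 of the 3 genotypes shown (159, 134 and 143 CPM, against 53.9, 55.9 and 51.3 CPM in wild type), and cyp-13B1 lies between isp-1 and wild type.

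Sperm and cuticle genes differed widely between the double mutant libraries. Of 54 sperm genes other than major sperm proteins 14 fell and 0 rose, beside 28 falls in isp-1. Their mean log2 level, relative to the mean of the 9 libraries, was -0.08, -0.96 and 0.41 in isp-1;sod-3 replicates 1 to 3 and 0.59, 0.62 and 0.62 in wild type. All double mutant libraries were thus below wild type, replicate 2 the most. The falls were 43 without isp-1;sod-3 replicate 3, 6 and 4 without replicates 1 and 2, and 1, 1 and 2 without wild type replicates 1, 2 and 3. They were 31 with median centring or quantile normalization, 27 with DESeq2 and 22 with TMM factors, but 8 with a pseudocount of 0.1, 6 with the 5 CPM filter and 5 with only the 2 genotypes. An example is ssq-2, a sperm-specific gene, with 53.1, 25.4 and 80.9 CPM in the double mutant, against 121, 132 and 110.3 CPM in wild type (log2 fold change -1.32 ± 0.32 (SE), adjusted p = 0.0178), whose call was lost without wild type replicate 1 (-1.32) or 2 (-1.26).

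Major sperm proteins, the cytoskeleton of the crawling sperm, had 2 falls and 0 rises of 30, beside 22 falls in isp-1. The 2 falls (6.67%) are near the share of all genes (6.57%). There were 23 falls without isp-1;sod-3 replicate 3 and 1 without any other 1 library of the double mutant or wild type. The falls were 12 with median centring, 10 with DESeq2 or quantile normalization, 7 with TMM factors and 0 with only the 2 genotypes. Their levels were 0.01, -1.07 and 0.62 in the double mutant and 0.51, 0.63 and 0.83 in wild type, where isp-1;sod-3 replicate 3 fell within the wild type range. The msp genes are near-identical copies and their single values are uncertain. Oocyte and eggshell genes had 0 calls of 32 with limma, 2 at an unadjusted p below 0.05, 1 fall each with edgeR and DESeq2 and 1 rise without isp-1;sod-3 replicate 3. Their mean log2 level was -0.07, 0.23 and -0.26 in the double mutant, against 0.02, -0.02 and -0.01 in wild type, so replicate 2 was highest and replicate 3 lowest. Of 40 germline genes of mitosis, meiosis and P granules 2 rose (5%, beside 10.4% of all genes). There was 0 or 1 rise left when any 1 library was left out and with TMM factors, median centring, edgeR, DESeq2 and only the 2 genotypes. Of 7 early zygotic embryo genes 0 were called by limma, edgeR or DESeq2, 0 at an unadjusted p below 0.05.

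Cuticle genes followed the same order of libraries. The mean log2 level of 152 collagens was 0.08, -0.69 and 0.79 in the double mutant, -0.39, 0.02 and -0.51 in isp-1 and 0.24, 0.20 and 0.25 in wild type, so the double mutant libraries lay on both sides of wild type. Of these collagens 10 rose (6.58%) and 3 fell (1.97%), below the shares of all genes (10.4% and 6.57%), beside 21 and 26 in isp-1. The falls were 39 without isp-1;sod-3 replicate 3 and 1 without replicate 1 or any 1 wild type library. They were 6 and 5 with median centring and quantile normalization, while rises were 5, 4 and 4 without wild type replicates 1, 2 and 3. The col-135 gene fell 2.49-fold (log2 fold change -1.31 ± 0.16 (SE), adjusted p = 0.000115), and dpy-17 rose 7.4-fold (log2 fold change 2.89 ± 0.35 (SE), adjusted p = 0.000135). Hedgehog-related and patched-related genes had 3 rises (5.17%) and 5 falls (8.62%) of 58, beside 10.4% and 6.57% of all genes. The falls were 26 without isp-1;sod-3 replicate 3, 9 with median centring or quantile normalization and 3 with the 5 CPM filter. There was 1 rise with only the 2 genotypes or without wild type replicate 2 or 3. The wrt-4 gene had 7.16, 2.54 and 12.59 CPM in the double mutant, against 71.9, 71.6 and 64.6 CPM in wild type (log2 fold change -3.37 ± 0.53 (SE), adjusted p = 0.00148). Astacins, cuticlins and molting genes had 8 rises (11.1%) and 3 falls (4.17%) of 72, near the shares of all genes (10.4% and 6.57%). The falls were 17 without isp-1;sod-3 replicate 3 and 6 to 9 with TMM factors, edgeR, DESeq2, median centring or quantile normalization. The rises were 4 without replicate 1 of the double mutant and 3, 4 and 5 without wild type replicates 1, 2 and 3. Body wall and pharyngeal muscle markers had 0 calls of 34 with limma, 5 at an unadjusted p below 0.05, 1 fall with edgeR, 3 falls with DESeq2 and 5 falls with median centring or without isp-1;sod-3 replicate 3. Their mean log2 level was 0.10, -0.39 and 0.30 in the double mutant, against 0.22, 0.04 and 0.15 in wild type, with replicate 2 lowest and replicate 3 highest. Intestine markers had 3 rises (15%) and 5 falls (25%) of 20, beside 10.4% and 6.57% of all genes. Of these, 1 rise was left without wild type replicate 1 or 2. There were 3 falls left without isp-1;sod-3 replicate 1 or wild type replicate 1 or 2. Hypodermis markers had 3 rises (20%) and 0 falls of 15. The part of these library differences in the comparison with wild type was not tested beyond leaving libraries out.

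**Figure D4:**
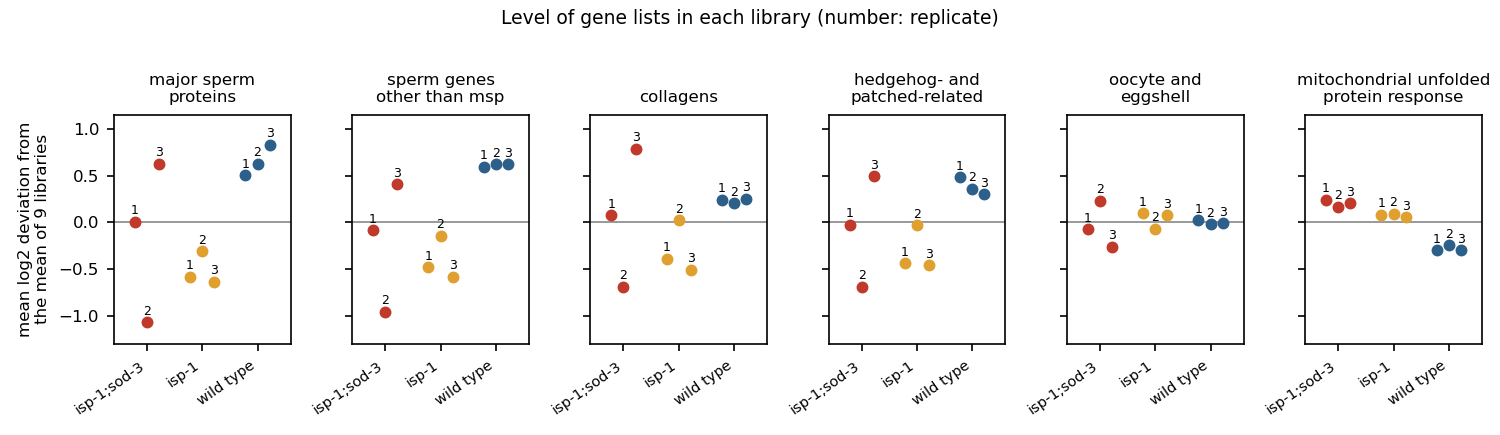
Mean log2 level of 6 gene lists in each library, relative to the mean of the 9 libraries (y axis), for isp-1;sod-3, isp-1 and wild type (x axis, points numbered by replicate). In sperm, collagen and hedgehog-related genes isp-1;sod-3 replicate 2 is lowest and replicate 3 highest of its genotype, while for the mitochondrial unfolded protein response the 3 double mutant libraries lie at 0.24, 0.17 and 0.21, against -0.30, -0.25 and -0.30 in wild type.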

How the data were processed

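RNA-seq libraries were made from whole worms with a stranded mRNA kit, per the labels' protocols. The authors deposited CPM values for 14326 genes in 12 libraries, on WBcel235, and the submitters' processing notes name Subread 1.5.0, featureCounts 1.4.6 and edgeR 3.14.0. No source used here says whether counting used the strand. The CPM values were whole multiples of 1 read in 100.0% of cases, which gave the depths and allowed count tests as alternatives.

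Genes above 1 CPM in at least 3 libraries were fitted with limma 3.58.1 (R 4.3.3, trend and robust) on log2(CPM + 0.5), all 12 libraries in one fit, without a replicate block. Calls used a Benjamini-Hochberg adjusted p below 0.05. Alternatives were edgeR 4.0.16 and DESeq2 1.42.0 on recovered reads, other filters, pseudocounts and scalings, library weights, a replicate block, only the compared genotypes and leaving out each library. The scripts were tested on simulated data.

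Named genes were isp-1, the sod genes and common reporters, up to 4 members per list with the smallest adjusted p, the 12 largest rises and 12 largest falls against wild type among called genes that have a locus name, average 5 CPM or more and show no overlap of libraries, and up to 4 genes in each direction against isp-1 by the same limits. Members and lists were chosen with earlier results of these data known. Gene names follow the deposited identifiers through the Ensembl WBcel235 annotation, or a table of gene names where that gave none. The RefSeq gene table served only to look up older symbols of list members.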

Additional observations from a re-analysis of the deposited data

How the results depend on the processing

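Of 201 named genes called against wild type in isp-1;sod-3, 163 kept the call and direction under every alternative in which they were tested. Under the alternatives that kept all libraries 179 did, and 0 called genes changed sign. Most of these genes were named for a small p or a large change in the same fit, so their share does not describe all calls. Of all 2379 calls, 1246, 1209 and 1451 were kept without wild type replicates 1, 2 and 3. Leaving out 1 library gave 1211 to 3525 calls, 879 to 1697 higher and 332 to 1828 lower, and 333 to 731 among list genes. The same step gave 89 to 199 calls against isp-1 and 1088 to 2158 for isp-1 against wild type. The lower genes numbered 1562 with DESeq2, 564 with the 5 CPM filter, 1545 with median centring and 1586 with quantile normalization. DESeq2 called 323 genes against isp-1. For isp-1 against wild type, the 5 CPM filter gave 1792 calls and a fit of only these genotypes 5702. Library quality weights, whose estimation did not converge, gave 7455 calls, 4302 higher and 3153 lower, 1390 among list genes, 1209 against isp-1 and 7284 for isp-1 against wild type. The cause of these moves was not tested, apart from fewer genes or libraries where a filter or a left-out library made them. The uncalled vit-2 changed sign with weights (-0.019) and quantile normalization (0 at 2 decimals), and ran from -0.14 to 0.25 with 1 library left out, and hsp-16.2 from -0.23 to 1.47.

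Same-numbered isp-1;sod-3 and wild type libraries had deviations from their group means that correlated at 0.20, 0.08 and -0.005 across genes. Libraries of unlike number gave -0.31 to 0.16. With 3 libraries per genotype these correlations are tied together, so they cannot show whether same-numbered libraries were prepared together. With the replicate number as a block 1824 genes were called, 1184 higher and 640 lower, and 127 against isp-1.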

Other observations

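Genes known only by a sequence name held the largest changes of the comparison. They are given here as values, chosen after their values were seen, and no role is assigned to them. C38D9.2 stood at 237, 271 and 243 CPM in the double mutant, 184, 141 and 171 CPM in isp-1 and 1.71, 0.748 and 0.501 CPM in wild type (log2 fold change 7.48 ± 0.22 (SE), adjusted p = 4.46e-10 against wild type by limma with Benjamini-Hochberg adjustment). F15D4.5 had 209, 259 and 200.1 CPM in the double mutant, against 1.99, 1.5 and 0.835 CPM in wild type (log2 fold change 6.88 ± 0.19 (SE), adjusted p = 7.25e-11), and ZC15.3 had 57.9, 92.3 and 51.2 CPM in the double mutant, 2.53, 2.44 and 2.53 CPM in isp-1 and 0.372, 0.16 and 0.0954 CPM in wild type (log2 fold change 6.55 ± 0.24 (SE), adjusted p = 1.04e-09 against wild type, log2 fold change 4.45 ± 0.24 (SE), adjusted p = 3.95e-07 against isp-1). On the lower side BE0003N10.6 had 0.742, 0.871 and 0.71 CPM in the double mutant, against 44.3, 45.2 and 45 CPM in wild type (log2 fold change -5.15 ± 0.34 (SE), adjusted p = 4.17e-07) and D1014.6 had 0.0774, 0 and 0 CPM in the double mutant, against 14.2, 13.2 and 10.6 CPM in wild type (log2 fold change -4.64 ± 0.30 (SE), adjusted p = 2.74e-07). F36G3.2 stood at 11.7, 7.97 and 12.5 CPM in the double mutant, 1.05, 0.959 and 0.23 CPM in isp-1 and 12.2, 15.1 and 15.1 CPM in wild type, so that isp-1;sod-3 replicates 1 and 3 lay close to wild type and isp-1 far below both (log2 fold change 3.22 ± 0.29 (SE), adjusted p = 6.44e-05 against isp-1, log2 fold change -0.40 ± 0.29 (SE), adjusted p = 0.357 against wild type).

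Of 29 histone genes, many of them near-identical copies whose reads cannot be split with certainty, 5 rose and 7 fell in isp-1;sod-3 against wild type. The linker histones hil-1 and hil-7 were at 1.04 and 2.04 on the log2 scale, and his-60 and his-67, which encode core histones, at -1.2 and -1.3. The falls were 4 without isp-1;sod-3 replicate 1, and 4, 2 and 4 without wild type replicates 1, 2 and 3, and the rises 3 without any 1 wild type library.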
